A study of Homo sapiens with 8 samples.

Results

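The widest H3K36me3 domains of control HepG2 cells were followed into cells with an shRNA against SETD2, called the knockdown here. They are the control peaks of 20 kb or more, 2073 of the 35375 peaks of the control list. They were chosen by length in the control list alone. For each domain, the knockdown peaks that overlap it by at least 1 bp were counted (called pieces here), and the share of its length that they cover and their place along it were measured. HepG2 is a human hepatocellular carcinoma line. The cells carried a lentiviral shRNA (short hairpin RNA) under puromycin selection, either a non-specific control or one against SETD2. In all groups virus was harvested at 48 and 72 h, polybrene was at 4 ug/mL and puromycin at 1 ug/mL. In each condition, 2 H3K36me3 immunoprecipitates and 2 input DNA libraries were made, and both replicates were pooled before peaks were called.

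Trimethylation of histone H3 at lysine 36 is placed by SETD2, which travels with elongating RNA polymerase II, so the mark spreads over the bodies of transcribed genes. It is read by proteins with PWWP domains and helps keep transcription from starting inside genes. Wide domains of the mark are therefore often the bodies of long or neighbouring active genes. Gene positions on hg19, the build of these peaks, were not used here, so domains are named by position, left and right are those of the chromosome, and neither gene ends nor the direction of transcription enter the results.

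The pooled immunoprecipitates held 47880817 filtered tags (control) and 67053273 (knockdown), so more tags were used for the knockdown. The pooled inputs held 67158956 (control) and 69095038 (knockdown). Since each condition has 1 pooled list, the spread of replicates is unknown and conditions are compared by value, with no test, and whether the replicates were separate cultures is not given. Intervals of shares are exact (Clopper-Pearson) 95% binomial intervals that treat domains as independent and cover counting error only. Poisson intervals of densities treat tags as independent molecules. Intervals of mean differences come from the spread between domains of the same pooled libraries, treat domains as independent and are no test. No level of SETD2 was analysed here. The knockdown list gives tags only inside its peaks, so where it has no peak the remaining level of the mark was not measured.

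The wide domains made up 5.86% of the control peaks, 28.0% of their covered length and 40.9% of their tags. Together they spanned 64.1 Mb. Their median length was 27.4 kb (quartiles 22.9 and 35.2 kb) and the longest was 113 kb. By length, 1232 were of 20 to 30 kb, 513 of 30 to 40 kb, 273 of 40 to 60 kb and 55 of 60 kb or more. Tag density, in tags per kb per 1000000 filtered tags, had a median of 2.31 (quartiles 1.87 and 2.96) against 1.68 in the 4041 control peaks of 10 to 20 kb. The lowest wide domain was at 1.19 and the highest at 13.3. These values describe the peaks that the length limit chose. Another control peak lay within 3 kb of 1268 wide domains (61.2%), a share that was not taken over the other control peaks.

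Peaks on either side of the length limit are given for comparison. The 3 members just inside it were of 20000, 20003 and 20004 bp, on chromosomes 3, 16 and 5, with control densities of 2.24, 2.13 and 4.10, and knockdown pieces covered 86.5%, 92.8% and 99.1% of them. The 3 control peaks just outside it were of 19998, 19996 and 19995 bp, on chromosomes 12, 1 and 3, with densities of 1.44, 1.65 and 1.30, and 71.2%, 97.9% and 46.0% covered.

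Most wide domains still had a knockdown peak somewhere along them, but most were split into several pieces. Of the 2073, 328 had no piece (15.8%, interval 14.3 to 17.5%), where 60.5% of all control peaks had none. A single piece remained in 450 domains (21.7%). In 1295 domains (62.5%, interval 60.3 to 64.6%) there were 2 or more pieces, against 10.5% of all control peaks. The part of length in that contrast was not tested. The control peaks of 10 to 20 kb had no piece in 16.3% (15.2 to 17.5%) and 2 or more in 39.1% (37.6 to 40.6%). The most pieces in any peak was 11 in wide domains and 5 in peaks of 10 to 20 kb. The part of length was not tested in this contrast either, and the intervals, which cover counting error only, are no test of it.

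Most knockdown peaks had a high estimated error rate in the caller's output. Only 1244 of the 23488 knockdown peaks (5.30%) stayed at or under 5% in the caller's own estimate of the false discovery rate (FDR). With that limit in both lists, 81.8% of 1759 wide domains had no piece and 1.53% had several. With a knockdown fold enrichment of 5 or more, 50.3% had none and 13.3% had several. Under either limit the median share of a wide domain's length covered by pieces, given next, was 0%.

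Over all wide domains, pieces covered a median of 61.2% of the length (quartiles 23.6 and 84.1%). Where at least 1 piece remained, the median was 69.4% (43.1 and 87.0%), close to the 68.5% over all control peaks with a piece. At least 90% of the length was covered in 343 wide domains (16.5%), against 8.66% of all control peaks, and 19 were covered from end to end. In 41 domains a piece was left but covered under 10%. The plot of piece numbers and covered shares shows a broad spread with a separate group at 0.

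**Figure D1:**
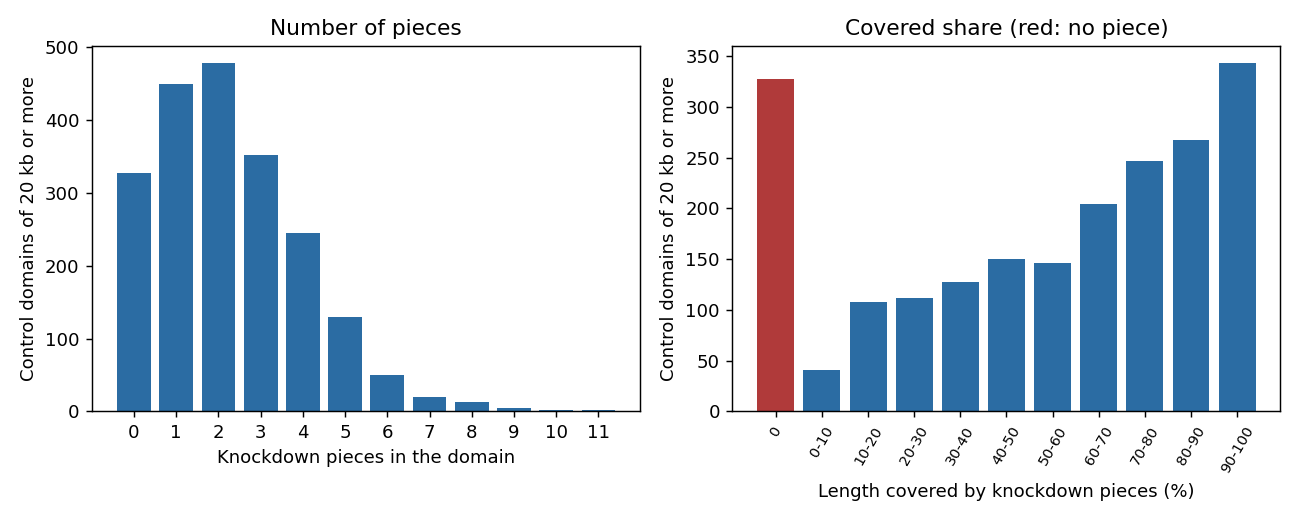
Left, number of control domains of 20 kb or more (vertical axis) by the number of knockdown pieces in each. Right, the same domains by the percent of their length that the pieces cover, with the 328 domains without a piece in red. The most frequent number of pieces was 2, in 478 domains, and the largest class of covered share was 90 to 100%, with 343 domains.

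The wide domains held 4707 pieces, from 4705 knockdown peaks, which is 20.03% of the knockdown list. The median length of a piece inside its domain was 4.62 kb (quartiles 2.61 and 9.03 kb), against 3.86 kb in peaks of 10 to 20 kb. Gaps between neighbouring pieces were mostly short: of 2962 gaps, the median was 0.891 kb (quartiles 0.283 and 2.56 kb), near the 0.77 kb in peaks of 10 to 20 kb. Of the 2962 gaps, 1550 (52.3%) were of 1 kb or less. Only 78 gaps exceeded 10 kb, the longest being 52.7 kb. Many broken domains were thus runs of pieces with narrow breaks, and in 751 of the 1295 domains in several pieces (58.0%) the longest piece held over 50% of the covered length.

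Domains with more pieces were weaker, up to 4 pieces. The median control density was 2.76 in domains with 1 piece, 2.28 with 2, 2.10 with 3 and 1.94 with 4, and it stayed near 1.94 with 5 (1.94) and 6 (1.95). Across the 2073 domains, Spearman's rho was -0.50 between control density and number of pieces, and 0.03 between length and number of pieces. The second value combines the long domains without a piece (median 31.6 kb) with a median length that went from 25.7 kb at 1 piece to 31.4 kb at 5 and 38.7 kb at 7. The covered share had a rho of 0.04 with density and -0.16 with length. All domains share the same pooled libraries, so these values describe the lists and carry no test. The value near 0 between density and covered share combines opposite trends, described next.

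Most of the densest wide domains were either covered nearly whole or had no piece at all. Among the 208 domains of highest control density (3.84 or more), 103 had no piece (49.5%, interval 42.5 to 56.5%) and 66 (31.7%) were covered over at least 90% of their length, which leaves 39 (18.8%) between. Among the 208 of lowest density (up to 1.61), 10 had no piece (4.81%, 2.33 to 8.66%), 8 were covered over at least 90% and 190 (91.3%) lay between. Of the densest domains 21 were in several pieces, against 172 of the least dense. Weak wide domains were thus mostly broken up, and strong ones mostly kept whole or not called.

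At high density, wide domains lacked a piece more often than shorter peaks of like density. At a control density above 4, 46.2% of 173 wide domains had no piece (38.6 to 54.0%), against 9.52% of 147 peaks of 10 to 20 kb (5.31 to 15.5%). At 3 to 4 the shares were 37.1% (31.8 to 42.7%) and 13.2% (9.10 to 18.3%). At 1.5 or less the order was the other way, with 8.08% (3.55 to 15.3%) of 99 wide domains and 26.1% (23.8 to 28.6%) of 1350 shorter peaks. Where a piece remained, the covered share rose with density in both length classes. In wide domains the median went from 44.3% at 1.5 or less to 93.7% above 4, and in peaks of 10 to 20 kb from 39.5% to 95.3%.

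**Figure D2:**
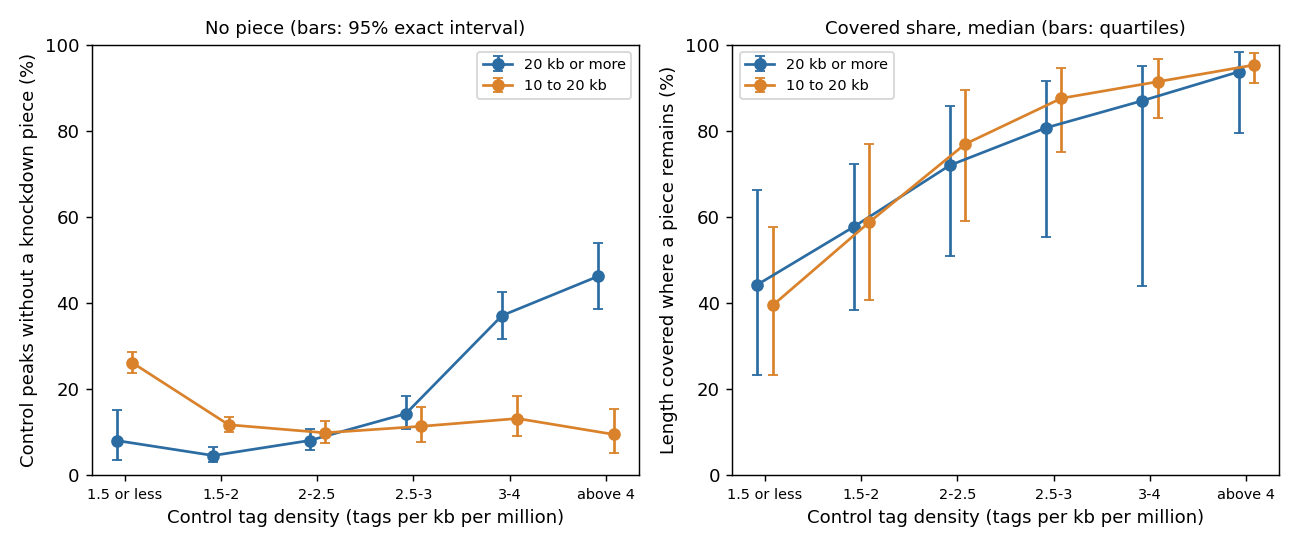
Left, percent of control peaks without a knockdown piece by class of control tag density (tags per kb per 1000000 filtered tags) for wide domains (blue) and peaks of 10 to 20 kb (orange), with exact 95% intervals. Right, percent of length covered where a piece remains, median with quartiles. Above a density of 4 the left values are 46.2% and 9.52%, while the right medians are 93.7% and 95.3%.

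In wide domains, the share without a piece also rose with the total number of control tags in a domain, which combines length and density. Without a piece were 5.56% of the 342 wide domains with up to 2000 tags, 12.5% of the 416 with over 3000 and up to 4000 and 46.4% (38.7 to 54.3%) of the 168 with over 7500. Peaks of 10 to 20 kb showed no steady rise. Their shares were 16.9% of 3583 at up to 2000 tags and 17.1% of 70 at over 3000 and up to 4000. At over 4000 and up to 5000 tags, 5% of 40 such peaks lacked a piece, against 20.7% of 251 wide domains. Within domains of 20 to 30 kb the share went from 5.56% at up to 2000 tags to 33.0% (23.5 to 43.6%) at over 4000 and up to 5000. The score of the authors' caller, minus 10 times the log10 of a peak's p-value, moved with tags in an uneven way. In wide domains its control median rose from 434 at up to 2000 tags to 1661 at over 4000 and up to 5000. At over 7500 tags it was 1132. By length, the median control score was 1030 in domains of 20 to 30 kb and 364 in those of 60 kb or more. The median fold enrichment of the same caller went the other way, at 11.4 and 17.65. In the control list, 314 wide domains (15.1%) had an FDR above 5%, as did 8.96% of the peaks of 10 to 20 kb and 49.5% of all control peaks. The largest number of tags in any peak was 38597 for the control and 8905 for the knockdown. Whether the calling of peaks with many tags had a part in the domains without a piece was not tested.

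The 328 domains without a piece had a median control density of 3.24 (quartiles 2.53 and 3.99), against 2.21 (1.83 and 2.74) in the 1745 with one. Their median length was 31.6 kb against 26.8 kb. Their surroundings were not empty in the knockdown. The nearest knockdown peak lay a median of 20.9 kb from the domain's end (quartiles 4.94 and 79.2 kb), and within 5 kb for 85 domains (25.9%). No such distance was taken for other control peaks. Of the other control peaks within 50 kb of domains without a piece, 440 of 1052 (41.8%) had a knockdown peak. Of those within 50 kb of domains with a piece, 3615 of 7800 (46.3%) had one. The share over all control peaks was 39.5%, near the first of these values.

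The densest of the domains without a piece were also the densest of all domains named here. The first, on chromosome 20 from 34287591 to 34330186 (42.6 kb), had 27221 control tags, a density of 13.3 (Poisson 95% interval 13.2 to 13.5). Its nearest knockdown peak was 2.40 kb away. On chromosome 2 from 21223931 to 21267443 (43.5 kb) the density was 12.2 (12.1 to 12.4), and the nearest knockdown peak was 228 kb away. On the same chromosome from 216223227 to 216301158 (77.9 kb) the 38597 control tags were the most of any peak in the list, at a density of 10.3 (10.2 to 10.4). These 3 domains had control fold enrichments of 15.76, 18.82 and 25.28 and an FDR of 0%. The other 2 were on chromosome 14 from 23526803 to 23564110, with a density of 8.19, and on chromosome 20 from 10616721 to 10654281, with 7.91 and no knockdown peak within 1244 kb.

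At the other end were domains that a single knockdown peak covered entirely. The longest, on chromosome 16 from 87862878 to 87902273 (39.4 kb), had a control density of 3.79 (3.71 to 3.88). The knockdown peak over it held 8905 tags, a density of 3.22 (3.15 to 3.29), and ran past both ends of the domain. On chromosome 1 from 78407147 to 78443962 (36.8 kb) the densities were 4.35 (4.25 to 4.44) in the control and 2.70 (2.64 to 2.77) in the knockdown. On the same chromosome from 70687989 to 70718408 they were 4.15 and 2.71, and from 90469144 to 90497511 they were 3.005 and 2.26. The knockdown densities are over the whole knockdown peaks, which run past the domains, so the level inside the domain's own bounds was not measured. In the fourth domain the knockdown peak spans 90460445 to 90499123. The fifth, on chromosome 5 from 36153174 to 36180273 (27.1 kb), had 2.20 (2.12 to 2.29) in the control and 1.73 (1.67 to 1.78) in the knockdown. The knockdown FDR was 0% and 0.41% for the second and the third of these peaks, 5.33% and 10.51% for the first and the fourth, and 69.71% for the fifth.

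The 5 domains with the most pieces were between 39.9 and 74.8 kb long, with control densities between 1.63 and 2.49. On chromosome X from 20169562 to 20229732 (60.2 kb, control density 2.38) 11 pieces covered 79.1%, and their summed density was 0.944 (0.910 to 0.978). The 3 pieces at its left were the longest, at 8.08, 6.23 and 11.8 kb, and a gap followed from 27.1 to 33.6 kb into the domain. The control summit, at 24.7 kb, lay in the third piece. On chromosome 12 from 125430549 to 125472406 (41.9 kb, density 1.95) 11 pieces covered 86.8%, with breaks of under 1 kb between all of them. Domains on chromosomes 13 (46060135 to 46110995) and 17 (29060607 to 29100546) had 10 pieces each, covering 66.1% and 64.7%. On chromosome 14 from 56078464 to 56153270 (74.8 kb) 9 pieces covered 77.0%, of which the leftmost, with a density of 1.83, was the densest. Apart from that piece (FDR 0%) and the leftmost on chromosome X (4.99%), every piece of these 5 domains had an FDR above 5%, up to 90.64%.

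In the 5 widest domains, pieces covered between 0 and 33.8% of the length, and none covered the control summit. The widest, on chromosome 15 from 93458461 to 93571342 (113 kb, control density 4.03), kept 1 piece of 20.1 kb at its right end, from 92.0 to 112.1 kb, while its control summit stood at 30.9 kb. On chromosome 9 from 107543293 to 107652022 (109 kb, density 3.48) 8 pieces lay in the right part, from 54.4 kb on, and covered 33.8%, and the control summit was at 11.8 kb. On chromosome 16 from 89788272 to 89882240 (94.0 kb, density 3.34) 2 pieces lay in the first 9.79 kb and covered 10.2%, with the summit at 48.9 kb. The domains on chromosome 2 from 216974630 to 217075566 (101 kb, density 4.69) and from 54807038 to 54901370 (94.3 kb, density 5.35) had no piece. Only the first of these 5 had a control FDR of 5% or less, at 0%, and the others were between 5.11 and 14%. Every knockdown piece in them had an FDR above 5%, from 13.38 to 91.33%.

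**Figure D3:**
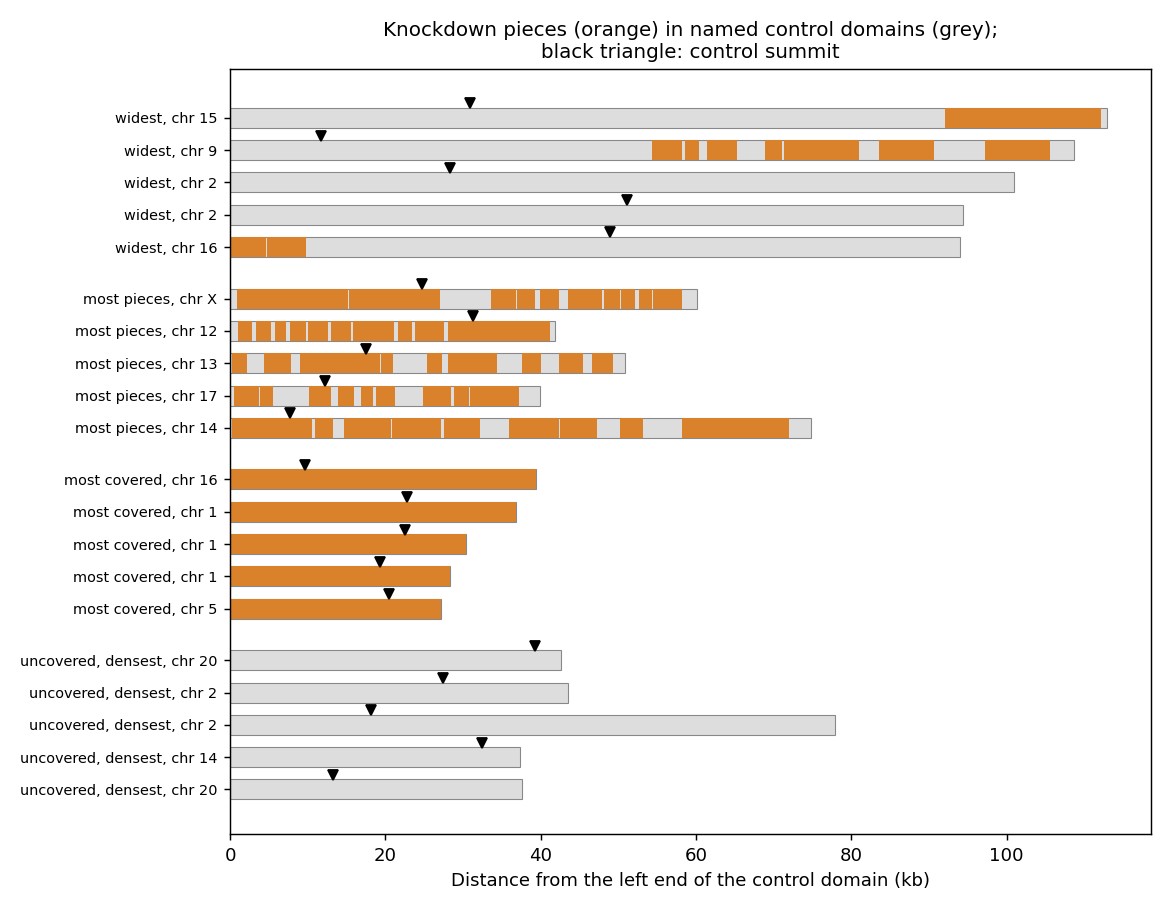
Maps of 20 named control domains (grey bars, 5 of each kind), each drawn from its left end in kb, with the knockdown pieces in orange and the control summit as a black triangle. In the 5 widest the pieces lie at 1 side and off the summit or are missing, in the most broken ones they are spread over the whole domain, and the most covered ones hold 1 piece from end to end.

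Where pieces lay along a domain was measured in the 1726 domains that were covered in part. Each was divided into parts of 20% of its length. On average 67.1% of the middle part was covered, against 56.3% of the first and 56.2% of the last, and 67.8% and 69.4% of those between. The centre was the more covered in 1165 domains (67.5%) and the ends in 547 (31.7%). The mean difference of centre minus ends was 10.9 percentage points (interval 9.30 to 12.5, from the spread between domains, SD 34.1). How much of this the calling of peak ends and the length of pieces set was not tested.

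Uncovered stretches at the ends were mostly short. In 1423 of the 1745 domains with a piece (81.5%, against 80.3% in peaks of 10 to 20 kb) neither end was covered, in 292 exactly 1 end was, and in 30 both were. The uncovered stretch before the first piece had a median of 1.70 kb at the left (quartiles 0.549 and 4.29 kb), and that after the last piece 1.61 kb at the right (0.574 and 4.40 kb). The medians of both sides differed by less than the spread between domains. In peaks of 10 to 20 kb the stretches were about as long, at 1.57 and 1.68 kb, which is a larger part of a shorter peak. Their difference of centre minus ends was greater, at 25.03 percentage points (23.7 to 26.4). Of all length lost from wide domains with a piece (19.9 Mb), 69.1% lay at the ends and 30.9% between pieces, against 83.1% at the ends in peaks of 10 to 20 kb. A further 11.4 Mb belonged to the domains without a piece.

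In the longest domains the ends were covered more than the centre. The difference was 15.8 percentage points (13.8 to 17.8) in domains of 20 to 30 kb and 8.36 (5.19 to 11.5) in those of 30 to 40 kb. In those of 40 to 60 kb it was -3.64 (-8.49 to 1.20), with the centre the more covered in 92 domains and the ends in 101. In the 41 partly covered domains of 60 kb or more it was -21.0 (-28.7 to -13.4): 25.9% of the middle was covered on average, against 45.04% of the first part and 48.8% of the last, and the centre was the more covered in 9 of them. These longest domains are few, and those of 60 kb or more also had the highest median density (3.35) and tag number (11318) of the 4 length classes. Among all 431 partly covered domains with 1 piece, the piece had its midpoint in the middle 20% in 212 (49.2%). Of the 213 of these pieces that covered under 50% of their domain, 22 (10.3%) had it there and 112 (52.6%) in the outer 20% at either end. A piece that covers over 50% cannot have its midpoint in an outer part, so the limit itself shapes that contrast.

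The place of the control summit went with the place of the pieces. A piece covered the control summit in 1510 of the 1726 partly covered domains (87.5%, interval 85.8 to 89.0%), where pieces covered 63.4% of the length on average, and in 90.6% of all partly covered control peaks. In partly covered peaks of 10 to 20 kb the share was 92.7%, with 60.1% of the length covered on average. In domains in several pieces the summit was covered in 93.05% with a mean covered share of 66.1%. In those with 1 piece it was covered in 70.8% with 55.2%. When the summit lay in the first 20% of the domain, 74.8% of that part was covered and 51.7% of the last. When it lay in the last 20%, 74.5% of that part was covered and 54.6% of the first. With the summit in the middle, 74.5% of the middle and about 50% of the outer parts (49.7 and 50.04%) were covered. In 1089 domains (63.1%) the side of the summit was the more covered, and in 632 the far side.

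**Figure D4:**
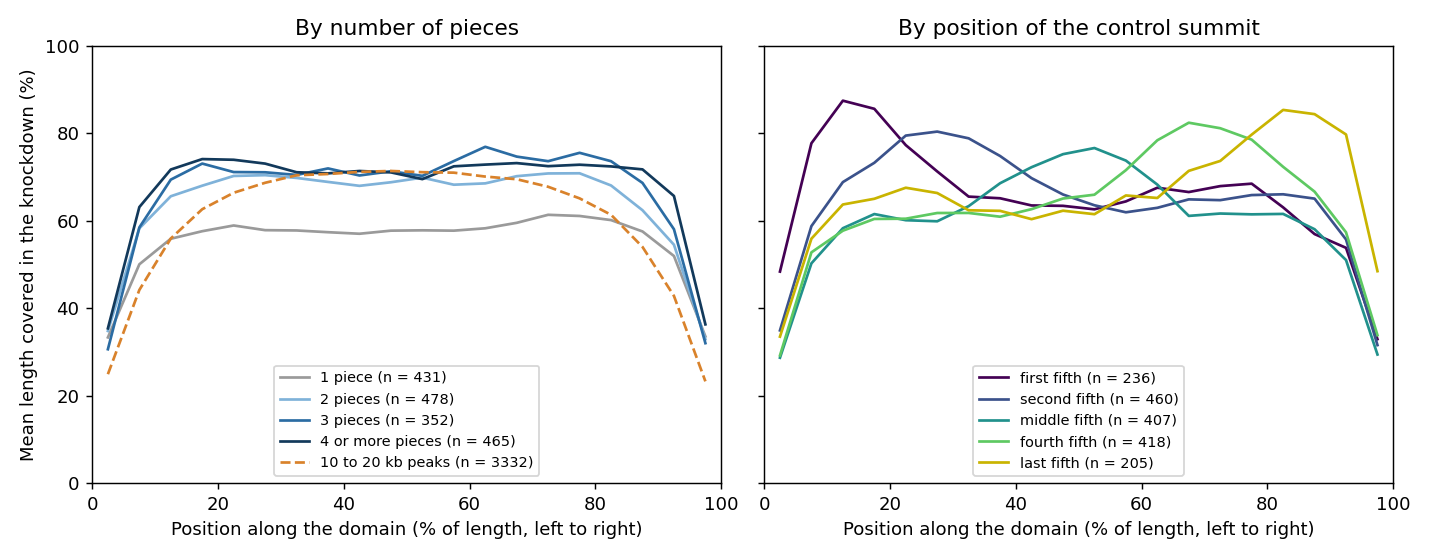
Mean percent of length covered by knockdown peaks (vertical axis) in 20 equal steps along partly covered domains, from the left end to the right. Left, wide domains by number of pieces, with peaks of 10 to 20 kb as a dashed line. Right, wide domains by where the control summit lies. Coverage of wide domains is nearly flat between the ends on the left, and on the right its highest point moves with the summit (on average 74.8% of the first 20% is covered when the summit lies there, and 74.5% of the last).

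The summit was favoured less as domains grew longer. It was covered in 92.2% of partly covered domains of 20 to 30 kb (mean covered share 64.5%), in 87.6% of those of 30 to 40 kb (66.4%) and in 71.4% of those of 40 to 60 kb (55.9%). At 60 kb or more it was covered in 39.0% (16 of 41, interval 24.2 to 55.5%), where the mean covered share was 38.8%. The summit of the strongest piece, by fold enrichment within the knockdown list, lay a median of 1.61 kb from the control summit (quartiles 0.197 and 8.70 kb), and within 1 kb in 767 domains (44.0%). This distance was not taken for other control peaks.

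Pieces had a lower tag density than the domains they lay in. Tags and lengths of all pieces of a domain were summed, over the whole knockdown peaks, so the bounds differ between conditions. Densities are scaled to each condition's own filtered tags, so they are relative values and the absolute level of the mark was not measured. In the 1745 domains with a piece the median density was 2.21 in the control and 1.103 in the pieces (quartiles 0.961 and 1.32). The density was lower in the pieces in 1744 of them, and in 97.0% of all control peaks with a piece. As a log2 ratio (knockdown over control) the median was -0.97 (quartiles -1.13 and -0.81), which is 1.95 times higher in the control. It was -0.79 in peaks of 10 to 20 kb and -0.66 over all control peaks with a piece. A log2 ratio of -1 or lower was found in 766 wide domains (43.9%), against 13.1% of all control peaks with a piece. The latter had a lower median control density, at 1.45. The ratio exists only where a knockdown peak was called, and the part of that limit in the contrast was not tested. The ratio went from -0.74 in the wide domains of lowest control density (the same 208, where a piece remained) to -1.19 in those of highest. The share at -1 or lower went from 5.05% in the former to 80% in the latter. Control density stands in both measures. Domains covered over 90% or more of their length had a ratio of -0.99, near the median of all.

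Chromosomes differed in how many wide domains were left without a piece. The share was highest on chromosome 20, at 56.2% of 73 domains (interval 44.1 to 67.8%), followed by chromosomes 16 (32.8% of 116), 2 (30.1% of 176), 6 (25.4% of 118), 17 (22.05% of 127) and 14 (19.0% of 58). It was lowest, leaving out chromosome Y with 1 domain, on chromosome X (0 of 20, which allows up to 16.8%), chromosome 18 (3.23% of 31) and chromosome 15 (3.90% of 77). Of all control peaks in the list, 39.5% had a piece. By chromosome this was 24.4% on 20, 33.5% on 16, 27.4% on 2, 29.6% on 6, 39.0% on 17 and 29.6% on 14. It was 36.8% on X, 28.8% on 18 and 37.6% on 15, so the order differed from that of wide domains. HepG2 is known to carry extra copies of chromosomes 2, 14, 16, 17 and 20 and of part of chromosome 6. Together these 6 chromosomes held 668 of the wide domains (32.2%) and 201 of the 328 without a piece (61.3%).

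Control tag density moved with this. Its median was 2.74 on chromosomes 2, 14, 16, 17 and 20, 2.46 on chromosome 6 and 2.17 on the others. The shares were also taken in 2 classes of density, within which the median densities still differed. At densities above 2.5 (medians 3.38, 3.25 and 2.99), no piece was left in 43.9% of 321 domains on the 5 chromosomes (38.4 to 49.5%), in 39.3% of 56 on chromosome 6 (26.5 to 53.2%) and in 18.3% of 470 on the others (14.9 to 22.1%). At densities up to 2.5 (medians 2.08, 1.962 and 1.91) the shares were 13.1% (9.02 to 18.2%), 12.9% (5.74 to 23.9%) and 4.39% (3.16 to 5.90%). The median covered share was 37.5% on the 5 chromosomes, 33.6% on chromosome 6 and 69.1% on the others. On chromosome 20, 49.5% of the control peaks of 10 to 20 kb had a piece, against 83.7% on all chromosomes. Low values there were thus not limited to wide domains. The parts of copy number and of density in these differences were not tested.

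**Figure D5:**
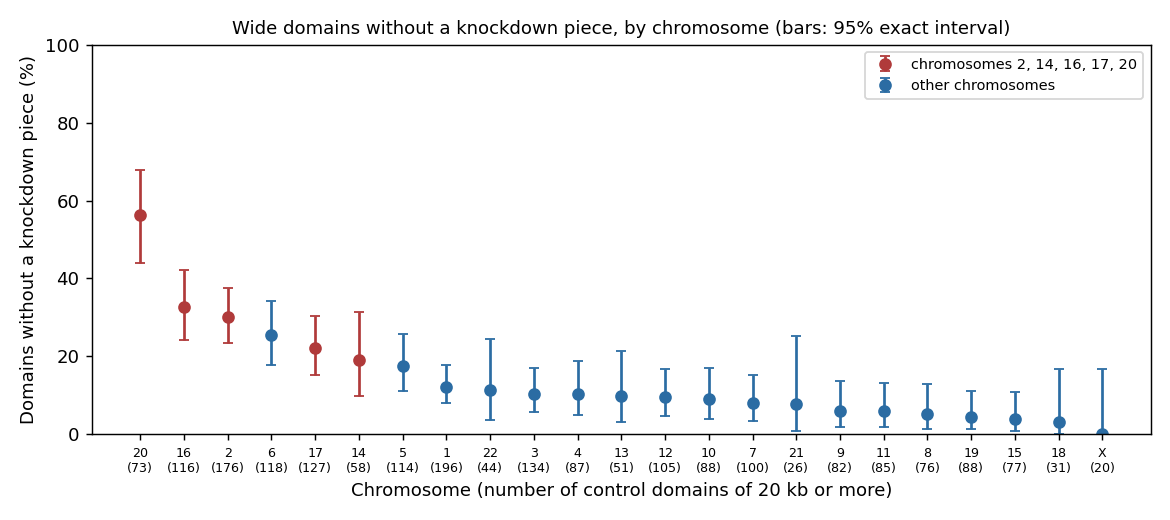
Percent of wide domains without a knockdown piece on each chromosome with at least 20 wide domains (number in brackets), with exact 95% intervals. Chromosomes 2, 14, 16, 17 and 20, in red, lie between 19.0 and 56.2%, while the blue ones lie at 17.5% or below except chromosome 6, at 25.4%.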

How the data were processed

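H3K36me3 and input libraries of HepG2 cells with a control or a SETD2 shRNA (8 libraries, 2 in each of 4 groups) were used as 1 pooled peak table per condition. The submitters' processing notes name Bowtie 1.1.2, FastQC 0.11.5 and the hg19 build. Peaks were called with MACS 1.4.2 on merged alignments, with a p-value limit of 1e-05 and 1 duplicate tag per position, per the file headers. The deposited tag counts are whole immunoprecipitated tags per peak, not normalized. The deposited score is 10 times the negative log10 of a peak's p-value, the deposited fold enrichment is a ratio over local background, and the deposited FDR is in percent. All 3 were used only within a list. A shorter list per condition was not used here.

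Overlap, covered length, pieces and their place were computed per domain with pandas 2.3.3 and NumPy 2.4.6 under Python 3.11.15. Intervals came from SciPy 1.17.1 and plots from matplotlib 3.10.9. The overlay was tested on simulated data. Named domains are the 5 widest, most broken, most covered and densest without a piece, and the 3 on either side of the length limit. Members and measures were chosen with earlier results of these data known. Alternatives were limits on peaks, other widths, joined peaks, a longer overlap and other definitions of ends. Gene lists set in the plan were not run, since they need gene positions on hg19. No DNA sequence is shown, for the same reason.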

Additional observations from a re-analysis of the deposited data

How the results depend on the processing

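The number of domains, 2073, was 3402 at 15 kb or more, 841 at 30 kb or more and 3767 with peaks joined within 3 kb. The share without a piece, 15.8%, was 81.8% with an FDR of 5% or less in both lists, 20.8% with a knockdown score of 100 or more, 50.3% with a knockdown fold enrichment of 5 or more, 21.4% at 30 kb or more and 11.3% with joined peaks. The share in several pieces, 62.5%, was in the same 3 limits 1.53%, 51.6% and 13.3%, and 57.9% at 15 kb or more and 47.3% with joined peaks. The median covered share, 61.2%, was 0%, 48.5% and 0% under those limits, 51.6% at 30 kb or more and 46.0% with joined peaks. Centre minus ends, 10.9 points, was 19.9 with a fold enrichment of 5 or more, 15.1 at 15 kb or more, 2.95 at 30 kb or more, 8.03 with joined peaks, 21.5 for the outer 10% at each end and 7.57 in domains with 1 piece. It reversed to -6.65 at 40 kb or more. Summit covered minus mean covered share, 24.1 points, was 33.7, 26.4 and 27.9 under the 3 limits, 27.1 at 15 kb or more, 18.2 at 30 kb or more and 34.2 with joined peaks. The causes were not tested. The 40 kb limit and the next settings were added after the data were seen. With 5000 control tags or fewer these 5 values were 10.2%, 70.2%, 64.2%, 13.6 and 27.4 points. Without chromosomes 2, 6, 14, 16, 17 and 20 the first 3 were 9.04%, 71.9% and 69.1%. No paired analysis was possible because the peak tables hold pooled replicates, which is also why no replicate could be left out. Overlaps of at least 1 kb and chromosomes 1 to 22 alone moved none of these values beyond its interval.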

Other observations

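The knockdown list also held wide peaks. Of its 326 peaks of 20 kb or more, 285 (87.4%) overlapped a wide control domain, as did 4705 of all 23488 knockdown peaks (20.03%). How much of this difference peak length sets was not tested. Among the wide domains of the control, 102 neighbouring pairs were separated by 3 kb or less.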
